A study of Homo sapiens with 4 samples.

Results

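The COX, CYTB and ATP mRNAs of the mtDNA code for the catalytic core of complex IV (MT-CO1, MT-CO2 and MT-CO3, here COX1, COX2 and COX3), for the only mtDNA-encoded subunit of complex III (MT-CYB, here CYTB) and for the membrane subunits of the ATP synthase (MT-ATP8 and MT-ATP6, whose reading frames share a single transcript, here ATP8/ATP6). All are cut from the long heavy-strand transcript of the mtDNA and translated by the mitochondrial ribosome. Crosslink sites on the plus strand of chrM were assigned to the mRNA that they overlapped most, over COX1 (chrM:5904-7445), COX2 (chrM:7586-8269), ATP8/ATP6 (chrM:8366-9206), COX3 (chrM:9207-9990) and CYTB (chrM:14747-15887), in hg38 positions counted from 1. These 6 genes on 5 mRNAs held 45 of the 2341 sites of the 4 libraries. GTPBP8 replicates 1, 2 and 3 had 5, 5 and 7 of them, and the AUH library had 28.

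fPAR-CLIP reads out RNA that UV light has crosslinked to a protein: 4-thiouridine (4SU) in the RNA is crosslinked and is then read as C in place of T, a conversion. The study used HEK293 T-REx cells, a human embryonic kidney line, that express GTPBP8::FLAG, a mitochondrial GTP-binding protein studied for its role in ribosome assembly (3 biological replicates), or AUH::V5, a mitochondrial enzyme of leucine breakdown that also binds RNA (1 library). Cells of both kinds received 50 ng/ml doxycycline for 48 h, 100 µM 4SU for 16 h and 5 min of UV light at 312 nm. The protein was pulled from lysates of whole cells by its tag, and its RNA was trimmed with RNase T1, which cuts after G. Both proteins were overexpressed from an inducible transgene, the libraries differ in tag as well as in protein, and no library without a tagged protein was analysed here. AUH reads are not a column of its list used as deposited: the converted reads of a site, divided by their fraction, stand for them, and every AUH level rests on that. The site lists held 402701, 627603 and 403172 reads for GTPBP8 and 9684 for AUH, so AUH values rest on few reads. Sites of the mtDNA took 93.4%, 94.8% and 92.3% of the GTPBP8 site reads, of which the 16 S rRNA gene RNR2 alone had 81.6%, 87.0% and 77.3% of all site reads, against 19.5% and 4.05% in AUH. Levels per 1000000 site reads (CPM) therefore depend on what else each library holds. GTPBP8 sites have at least 5 reads in the lists and AUH sites at least 4, so "no listed site" does not mean that no read was sequenced.

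GTPBP8 sites fell at 7 places after overlapping or split sites of the replicates were merged, and 4 of these places had a site in all 3 libraries. 2 of the 4 lie in COX1, in nt 998-1059 (chrM:6901-6962) and nt 1217-1270 (chrM:7120-7173) counted from the first nucleotide of the mRNA, 1 lies in COX2, in nt 195-359 (chrM:7780-7944), and 1 in COX3, called its downstream place here. The sequences of the places in COX1 and COX2 are shown because each place has a site in every GTPBP8 library. They span the merged sites, of which 46, 49 and 97 nt, in the order shown, lie in all 3 libraries. The letters are those of the deposited lists, read 5′ to 3′ on the plus strand of hg38, and capitals mark the nucleotides that an AUH site also covers:
COX1 nt 998-1059: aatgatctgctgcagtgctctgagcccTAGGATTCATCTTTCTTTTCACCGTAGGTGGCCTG
COX1 nt 1217-1270: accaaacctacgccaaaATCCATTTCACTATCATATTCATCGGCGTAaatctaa
COX2 nt 195-359: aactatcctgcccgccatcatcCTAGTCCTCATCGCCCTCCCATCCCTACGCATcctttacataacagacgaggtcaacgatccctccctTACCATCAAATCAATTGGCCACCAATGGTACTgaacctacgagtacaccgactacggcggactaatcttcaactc

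AUH sites covered 35 of the 62 nt of the first COX1 place, 30 of the 54 nt of the second and 64 of the 165 nt of the COX2 place. On COX2 the 64 nt hold for replicate 2 alone. Replicates 1 and 3 each shared 32 nt with AUH there, and their sites leave out the first stretch of capitals. No AUH site overlapped the downstream COX3 place. Another place, in COX3 nt 32-155 (chrM:9238-9361), had sites in GTPBP8 replicates 1 and 3 and none in replicate 2. Its sequence is shown because it separates the replicates, a choice made after its values were seen:
COX3 nt 32-155: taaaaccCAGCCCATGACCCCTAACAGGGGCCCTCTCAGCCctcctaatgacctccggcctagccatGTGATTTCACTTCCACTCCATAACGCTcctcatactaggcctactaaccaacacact

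**Figure D1:**
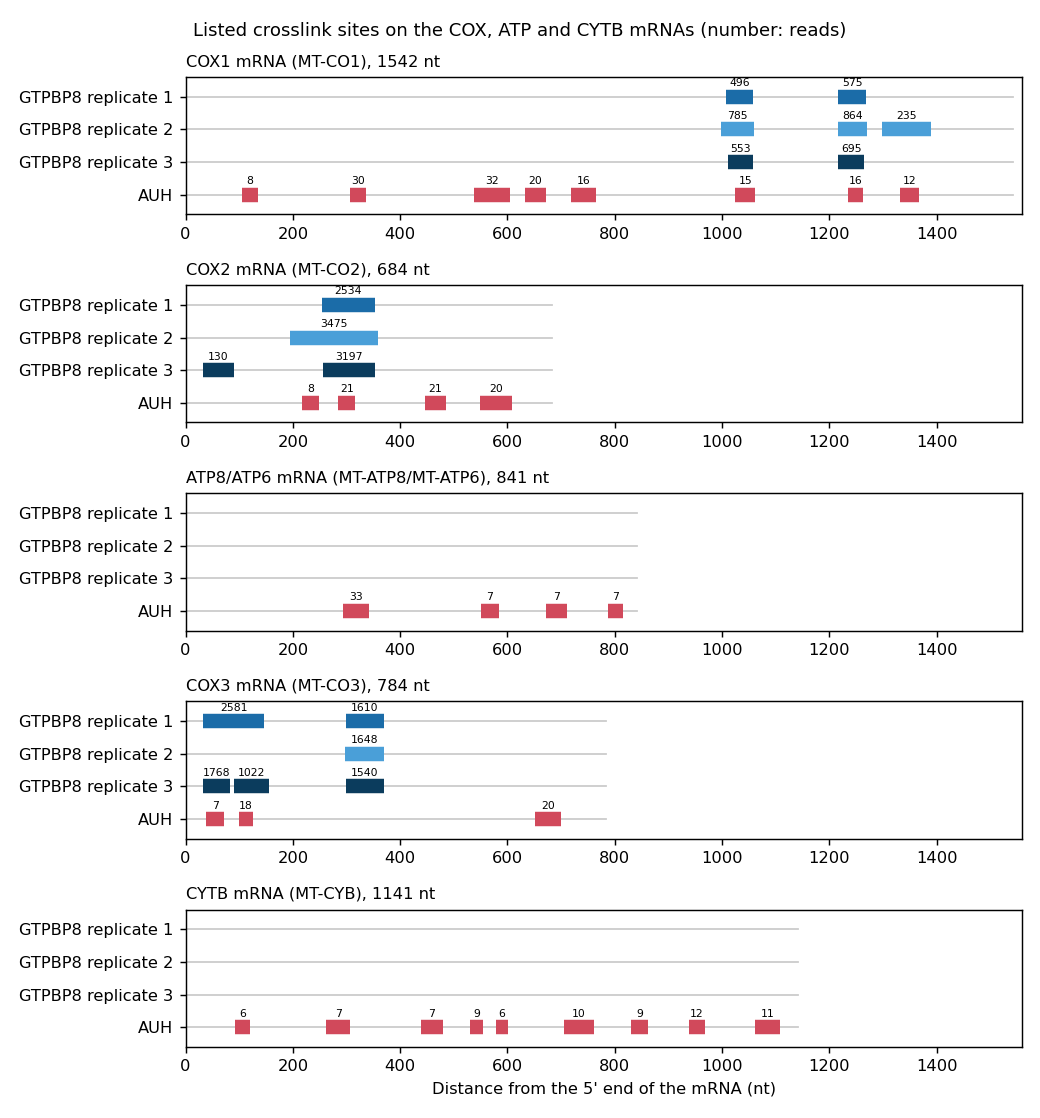
Sites on each of the 5 mRNAs, drawn to scale, by distance from the 5′ end of the mRNA in nucleotides (nt), for the 3 GTPBP8 libraries (blue) and the AUH library (red). The number over a site is its reads. GTPBP8 sites repeat at the same places in COX1, COX2 and COX3, and only AUH has sites on ATP8/ATP6 and CYTB.

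COX1 codes for the subunit that holds the oxygen-reducing centre of complex IV. At nt 998-1059 GTPBP8 had 496, 785 and 553 reads in replicates 1, 2 and 3, or 1232, 1251 and 1372 CPM (1285 ± 76, SD, n = 3). At nt 1217-1270 it had 575, 864 and 695 reads, or 1428, 1377 and 1724 CPM (1509 ± 187, SD, n = 3). Both places varied little between replicates, with coefficients of variation of 5.91% and 12.4%. At the first place the sites began at nt 1008, 998 and 1012, and the position of strongest signal was nt 1017 in the 3 libraries. At the second the sites began at nt 1217 in the 3 libraries, and the strongest signal was at nt 1229, 1270 and 1231. Another place, nt 1298-1390, was listed in replicate 2 alone, with 235 reads (374 CPM). Replicate 2 is the deepest library.

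COX2 codes for the subunit that takes electrons from cytochrome c. At nt 195-359 GTPBP8 had 2534, 3475 and 3197 reads, or 6293, 5537 and 7930 CPM (6586 ± 1223, SD, n = 3). The sites spanned 100, 165 and 98 nt, and the position of strongest signal was nt 338 in the 3 libraries. Another site, at nt 32-90 of the same mRNA, was listed in replicate 3 alone with 130 reads (322 CPM).

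COX3 codes for the remaining mtDNA-encoded subunit of complex IV. At its downstream place GTPBP8 had 1610, 1648 and 1540 reads, or 3998, 2626 and 3820 CPM (3481 ± 746, SD, n = 3). At nt 32-155 replicate 1 had 2581 reads at 1 site, and replicate 3 had 2790 reads at 2 sites, of 1768 and 1022 reads. The levels there were 6409 and 6920 CPM, in the range of the COX2 place above, and replicate 2 had no listed site. Scaled by site reads alone, the mean of replicates 1 and 3 would be 4183 reads in replicate 2, whose list has a minimum of 5. RNR2 took 87.0% of the site reads in replicate 2, against 81.6% and 77.3% in replicates 1 and 3, so this scaling is rough. What the missing site of replicate 2 came from was not tested. No site of replicate 2 on another chromosome shared a run of 19 nt or more with a listed site on these mRNAs. Its site in MTCO1P12, a nuclear copy of COX1 described below, had no such run either. The match therefore does not find every copy, and no conclusion is drawn from it.

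No GTPBP8 library had a listed site on ATP8/ATP6 or on CYTB. AUH had 4 sites with 54 reads on ATP8/ATP6 and 9 sites with 77 reads on CYTB. Absence was therefore shared by the 3 GTPBP8 libraries. Each had at least 41.6 times the site reads of AUH, but RNR2 held 77.3% to 87.0% of the GTPBP8 site reads. Replicate 3 had a site with 290 reads in MTATP6P1, a nuclear copy of ATP6 described below. What the absence came from was not tested.

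The sites sharing a place had a common pattern of read ends. RNase T1 leaves ends in G, and the share of reads that end in G was 92.3%, 91.8% and 94.2% at COX1 nt 998-1059 and 82.8%, 84.0% and 78.8% at COX1 nt 1217-1270. It was 9.94%, 17.7% and 8.73% at COX2 nt 195-359 and 25.7%, 26.5% and 25.3% at the downstream COX3 place. At COX3 nt 32-155 it was 82.2% and 82.8% in replicates 1 and 3. The means of the 5 places thus ran from 12.1% to 92.8%, with an SD between replicates of at most 4.88 percentage points. The sites at COX2 nt 195-359, where the share was lowest, held 17, 22 and 17 G, and the sites at COX1 nt 1217-1270 held 4 G each.

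**Figure D2:**
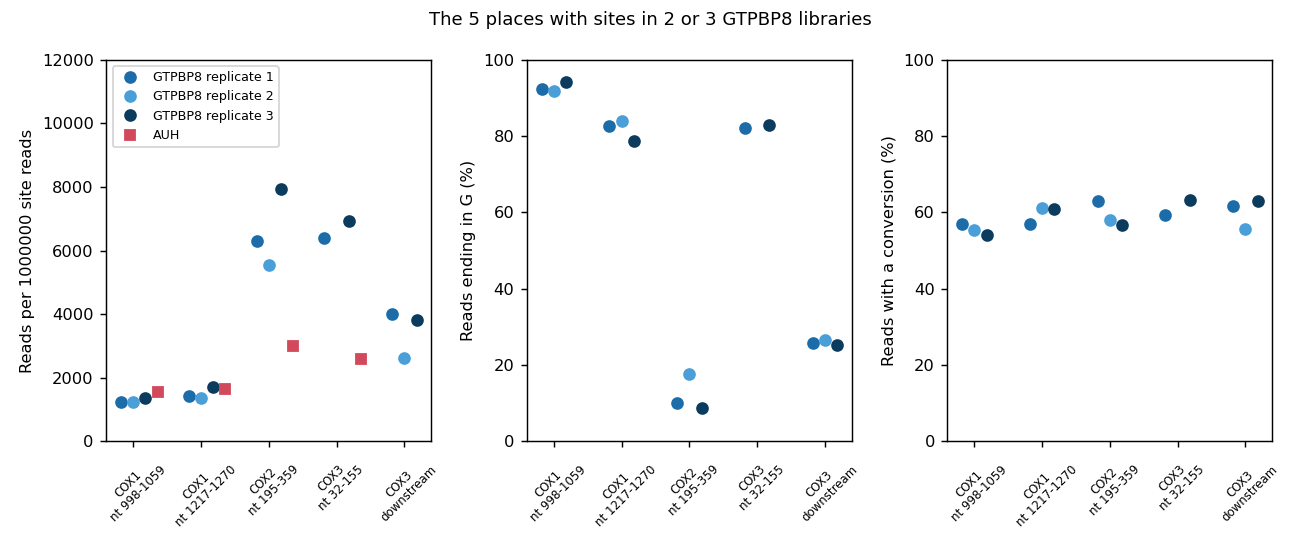
The 5 places found in 2 or 3 GTPBP8 libraries, with 1 point per library. The panels give CPM (AUH added as squares where it had a site), the share of reads ending in G in percent and the share of reads with a conversion in percent. The read-end share differs between places far more than between replicates, whereas the converted share lies between 54.1% and 63.3% at each of them.

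Between 54.1% and 64.9% of the reads carried a conversion at each of the 17 GTPBP8 sites. Pooled over the sites, the share was 60.7%, 57.8% and 60.2% in replicates 1, 2 and 3 (59.6% ± 1.56, SD, n = 3). Conversions were spread over most T positions of a site. At COX2 nt 195-359 the conversions were at 20 of 20, 35 of 37 and 17 of 20 T. In AUH the pooled share was 74.9% (Wilson 95% interval 70.4 to 79.0%, 395 reads; these intervals cover counting error only, since reads include PCR copies). It was above each GTPBP8 library. The mean of GTPBP8 minus AUH was -15.4 percentage points, with a two-sided exact permutation p of 0.25, the smallest that 3 libraries against 1 allow. Nuclear sites differed in the same direction, with 65.9%, 65.6% and 63.4% in GTPBP8 and 75.1% in AUH. The rRNA genes differed in the other direction. RNR1 had 60.2%, 56.9% and 55.9% in GTPBP8 and 40.6% in AUH, and RNR2 had 64.1%, 54.0% and 65.5% against 52.6%. The gap is thus not particular to these mRNAs. Single AUH sites ranged from 33.3% to 100%, on 6 to 33 reads each. The lists came in different layouts, in which the lowest converted share of any site was 33.3% for AUH and 7.69% to 9.76% for GTPBP8, and a difference between the proteins and between the lists cannot be told apart.

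**Figure D3:**
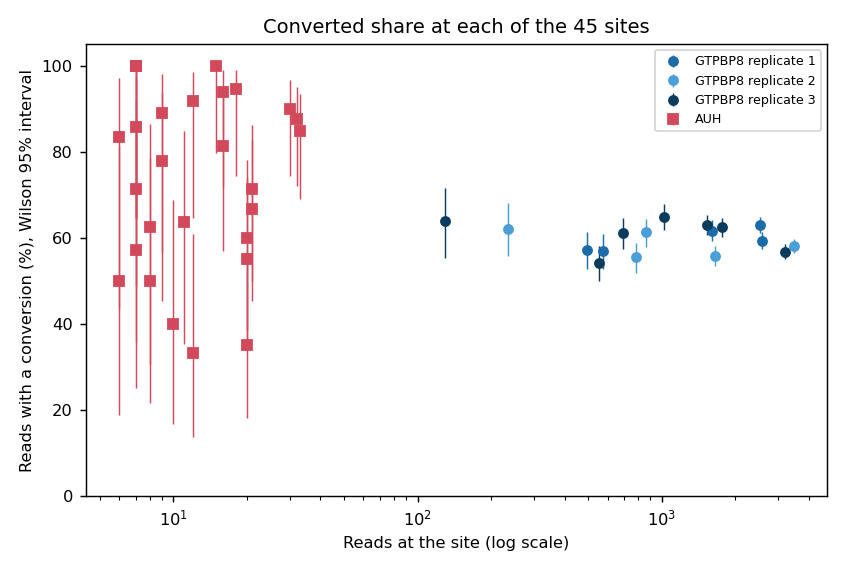
Share of reads with a conversion, in percent with its Wilson 95% interval, against the reads of the site on a log scale, for each of the 45 sites. GTPBP8 sites (blue circles) lie between 54.1% and 64.9%. AUH sites (red squares) have at most 33 reads, wide intervals and shares from 33.3% to 100%.

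The replicates were next compared site by site. GTPBP8 replicates 1 and 3 were most alike: 5 of 5 sites of replicate 1 overlapped a site of replicate 3, and 6 of 7 the other way round. Replicates 1 and 2 shared 4 of 5 sites in each direction. Of the sites of replicate 2, 4 of 5 overlapped one of replicate 3, and 4 of 7 the other way round. Averaged over the 6 directed pairs, 80.5% of the sites and 71.8% of the covered nucleotides were shared. These shares are not given here for other sites, so they do not show whether such agreement is particular to these mRNAs. By nucleotides, 95.4% of the positions covered in replicate 1 were covered in replicate 3, and 70.3% were covered in replicate 2. The 4 places present in all libraries held 66.9%, 96.6% and 67.2% of the GTPBP8 reads on these mRNAs in replicates 1, 2 and 3, and most of the rest in replicates 1 and 3 was COX3 nt 32-155.

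Sites of both proteins were then set against each other. Of the GTPBP8 sites, 4 of 5, 4 of 5 and 5 of 7 overlapped an AUH site by at least 1 nt. Of the 28 AUH sites, 7 (25.0%) overlapped a site of any GTPBP8 library: 3 of 8 on COX1, 2 of 4 on COX2, 2 of 3 on COX3, and none of 4 on ATP8/ATP6 or of 9 on CYTB. The share of AUH sites that overlapped a GTPBP8 site was 30.3% (10 of 33) on the complex I mRNAs, 22.4% (19 of 85) over all mitochondrial sites and 6.06% (46 of 759) over all sites, so 25.0% is close to the mitochondrial background. On the complex I mRNAs 6 of 7, 3 of 4 and 2 of 4 GTPBP8 sites overlapped an AUH site (85.7%, 75.0% and 50.0%). Over all mitochondrial sites the GTPBP8 share was 47.8%, 38.1% and 32.1%. AUH sites covered 1086 nt, or 21.8%, of the 5 mRNAs, and GTPBP8 sites 390, 447 and 440 nt (8.53% ± 0.62, SD, n = 3). The AUH sites inside GTPBP8 places held 97 of the 395 AUH reads (24.6%).

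The AUH sites with most reads on COX2, ATP8/ATP6, COX3 and CYTB are shown to let their sequences be set beside the GTPBP8 places, with capitals where a GTPBP8 site covers the same nucleotides. On COX2, 2 sites tied. The positions are chrM:7870-7901 and chrM:8031-8071 for COX2 (21 reads each), chrM:8659-8707 for ATP8/ATP6 (33 reads), chrM:9858-9905 for COX3 (20 reads) and chrM:15684-15715 for CYTB (12 reads), on the plus strand of hg38:
AUH COX2 nt 285-316: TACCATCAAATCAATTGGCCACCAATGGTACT
AUH COX2 nt 446-486: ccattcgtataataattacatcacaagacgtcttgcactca
AUH ATP8/ATP6 nt 294-342: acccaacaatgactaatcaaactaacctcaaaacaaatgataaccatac
AUH COX3 nt 652-699: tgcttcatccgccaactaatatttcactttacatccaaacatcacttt
AUH CYTB nt 938-969: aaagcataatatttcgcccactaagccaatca

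Only 1 of these 5, in COX2, lay inside a GTPBP8 site. The other four had no nucleotide in common with one. The median AUH site held 10.3% G, and the median GTPBP8 site held 16.9%, 15.1% and 15.7% in replicates 1, 2 and 3, so the GTPBP8 libraries lay above AUH. The medians of A plus T were 54.0% for AUH and 48.0%, 50.0% and 51.02% for GTPBP8. The heavy-strand complex I mRNAs did not share these differences. Their median G was 10.5% for AUH and 10.4%, 11.7% and 10.7% for GTPBP8. Their median A plus T was 52.9% for AUH and 56.1%, 55.4% and 57.0% for GTPBP8, the reverse order. AUH sites are also shorter, at 23 to 69 nt against 46 to 165 nt.

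GTPBP8 and AUH were compared at the shared places before they were compared by mRNA. At COX1 nt 998-1059 AUH had 15 reads, or 1549 CPM (Wilson 95% interval 939 to 2554), close above the GTPBP8 libraries, and at COX1 nt 1217-1270 it had 16 reads, or 1652 CPM (1017 to 2682), within their range. At COX2 nt 195-359 AUH had 29 reads, or 2995 CPM (2086 to 4297), below each GTPBP8 library. Of these reads, 8 were at nt 217-248, where only replicate 2 had a GTPBP8 site. The other 21 were at nt 285-316, inside a site of each replicate. The mean of GTPBP8 over AUH was 0.83, 0.91 and 2.20 at these 3 places, with two-sided exact permutation p-values of 0.25, 1.00 and 0.25, or 0.375, 1.00 and 0.375 after Benjamini-Hochberg adjustment over the 3 places. At COX3 nt 32-155 AUH had 25 reads, or 2582 CPM, below the 2 GTPBP8 libraries with sites there.

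By mRNA, the whole group of 5 took 1.94%, 1.12% and 2.21% of the GTPBP8 site reads (1.75% ± 0.57, SD, n = 3) and 4.08% (3.70 to 4.49%) of the AUH site reads. The ratio of GTPBP8 to AUH was 0.43, with a two-sided exact permutation p of 0.25, and AUH lay above each GTPBP8 library. On COX1, GTPBP8 had 1071, 1884 and 1248 reads, or 2660, 3002 and 3095 CPM, and AUH had 149 reads, or 15386 CPM. The libraries did not overlap, and the ratio was 0.19. The 5 AUH sites outside GTPBP8 places held 106 of its 149 reads there. On COX2, GTPBP8 had 6293, 5537 and 8252 CPM and AUH 7228, inside the range of the replicates. On COX3, GTPBP8 had 10407, 2626 and 10740 CPM and AUH 4647, between replicate 2 and the others. The exact permutation p-values were 0.25 for COX1 and 1.00 for COX2 and COX3, and 0.42, 1.00 and 1.00 after Benjamini-Hochberg adjustment over the 5 mRNAs.

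**Figure D4:**
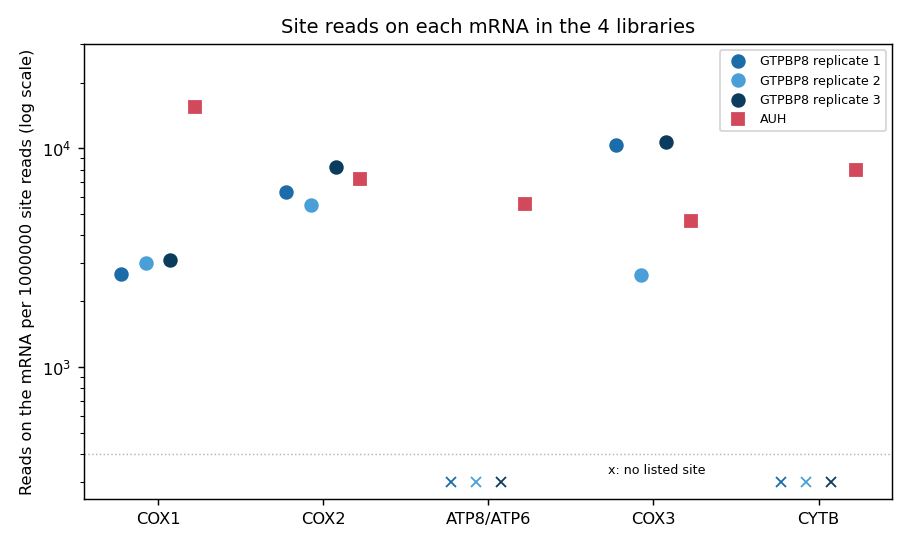
Reads on each mRNA per 1000000 site reads, on a log scale, in the 3 GTPBP8 libraries (circles) and the AUH library (squares). Crosses under the dotted line mark libraries with no listed site. AUH lies above the GTPBP8 libraries on COX1, and inside or between them on COX2 and COX3.

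An edgeR quasi-likelihood model was fitted to the reads of the 21 genes and mitochondrial transcripts with a site in every library. COX1 was lower in GTPBP8 by 2.40 on the log2 scale (log2 difference -2.40, SE 0.61, edgeR adjusted p = 8.6e-04), COX2 had a log2 difference of -0.11 (SE 0.65, adjusted p = 0.87) and COX3 one of 0.77 (SE 0.69, adjusted p = 0.30). AUH is 1 library, so the spread behind these p-values is that between the GTPBP8 replicates, and AUH was assumed to vary likewise. Each of the 21 genes needed a site in the AUH list, which has the fewest reads, so genes high in AUH enter more easily. The shares and the median given next hold for this set only. Of the 21 tested, 61.9% were called lower in GTPBP8, 9.52% higher and 71.4% in either direction, and the median log2 difference was -2.56, so COX1 is close to the middle of the genes tested, and 1 member called of 3 is below the background. With TMM factors, which move that median to -0.10, COX1 lost its call (log2 difference 0.12, edgeR adjusted p = 0.89), and COX2 (2.38) and COX3 (3.20) were called higher (edgeR adjusted p = 0.016 for each), among 5 genes called higher and 2 called lower of the 21. With the 215 genes that have a site in at least 2 libraries, COX1 kept its log2 difference (-2.40) but not its call (edgeR adjusted p = 0.16). The median log2 difference of these 215 genes was 5.27. GTPBP8 libraries alone can meet this filter, so genes without an AUH site enter, and they have a high log2 difference. The place of COX1 among the genes thus depends on the filter, and no conclusion is drawn from it. ATP8/ATP6 and CYTB were tested in neither set, since no GTPBP8 library had a site.

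Levels between mRNAs were compared per kilobase of mRNA. In GTPBP8, COX3 had 13274, 3349 and 13699 CPM per kilobase (10108 ± 5857, SD, n = 3), COX2 had 9200, 8095 and 12064 (9786 ± 2049) and COX1 had 1725, 1947 and 2007 (1893 ± 149). COX3 and COX2 did not differ beyond their spread, and COX1 was below both in each library. In AUH the order was COX2 with 10568 CPM per kilobase (Wilson 95% interval 8371 to 13336), COX1 with 9978 (8508 to 11697), CYTB with 6969 (5580 to 8699), ATP8/ATP6 with 6630 (5085 to 8642) and COX3 with 5927 (4432 to 7923). The intervals of neighbours in this order overlapped, while those of COX2 and COX1 did not overlap that of COX3. These sums run over sites called in each library, and the covered share differed: on COX1 it was 8.80% ± 4.13 in GTPBP8 and 20.9% in AUH. Per covered nucleotide of the 5 mRNAs GTPBP8 had 49.6, 25.0 and 50.2 CPM (41.6 ± 14.4, SD, n = 3), and AUH, with 37.6 CPM, lay inside their range (two-sided exact permutation p = 1.00).

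The heavy-strand complex I mRNAs (ND1, ND2, ND3, ND4L/ND4 and ND5, subunits of NADH dehydrogenase) served as the nearest comparison. They held 7, 4 and 4 GTPBP8 sites and 33 AUH sites. The median COX, CYTB and ATP site had 1610, 864 and 1022 GTPBP8 reads, and the median complex I site had 1002, 1588.5 and 858.5. The fold of the medians was 1.61, 0.54 and 1.19 (1.11 ± 0.54, SD, n = 3; two-sided exact sign-flip permutation p = 1.00, smallest possible 0.25), so its direction differed between replicates. The ratio of summed reads was 0.66, 0.49 and 1.00 in GTPBP8 and 0.94 in AUH. Converted shares of the complex I sites were 60.5%, 60.0% and 65.1% in GTPBP8 and 71.4% in AUH, and the COX, CYTB and ATP sites lay within 4.92 percentage points of these in each library. By reads, the member sites held ranks between 6 and 47 among all sites of a GTPBP8 library. RNR2 and RNR1 ranked above them, with 77.3% to 87.0% and 4.30% to 10.3% of the site reads. The top complex I site ranked 4, 4 and 5, above every member site, and held 47.7%, 73.6% and 76.9% of the complex I reads. Reads per distinct read sequence were 1.53, 1.55 and 1.48 on the member mRNAs and 3.55, 3.10 and 3.47 on RNR2.

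The nuclear genome carries copies of these genes, and reads can be listed there instead of on chrM. Replicates 1, 2 and 3 each had a site in MTCO1P12, a copy of COX1 on chromosome 1, with 151, 133 and 97 reads and a converted share of 19.9%, 21.1% and 22.7%, under every share of the GTPBP8 sites on these mRNAs. AUH had a site at the same place with 11 reads, of which 45.5% were converted. That AUH site matched the AUH site at COX1 nt 719-766 over a run of 21 nt, and with 1 mismatch over its whole 35 nt. No GTPBP8 library listed a site at nt 719-766 of COX1 on chrM. Replicate 3 had a further site in MTATP6P1, a copy of ATP6, at chr1:634000-634055, with 290 reads (719 CPM) and a converted share of 55.5%, although no GTPBP8 library listed one on the ATP8/ATP6 mRNA of chrM. Its sequence and that of the MTCO1P12 site of replicate 1 (chr1:631799-631821), both on the plus strand of hg38, are given so that they can be set beside the chrM sequences:
MTATP6P1 nt 305-360: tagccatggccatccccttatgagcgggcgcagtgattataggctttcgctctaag
MTCO1P12 nt 726-748: agtttatattctcatcctaccag

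Whether these reads came from the mtDNA or from the nuclear copies was not tested. The rest of the mtDNA sequence was not used here. Other sites in named copies, in MTCO1P12, MTCO1P31, MTCO3P15, MTCO3P9 and MTCYBP18, had 5 to 12 reads.

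The nuclear-encoded partner subunits had few reads, as nuclear sites did in general. Of 35 nuclear genes for subunits of complexes III, IV and V, 3, 7 and 2 had a site in GTPBP8 replicates 1, 2 and 3, and 1 had one in AUH. The sites had at most 12 reads. The median nuclear site had 8, 8 and 9 reads in GTPBP8 replicates 1, 2 and 3 and 6 in AUH. ATP5B, the catalytic β subunit of the ATP synthase, had 12 reads in each of replicates 1 and 2 and no site in replicate 3. UQCR11, a small subunit of complex III, had 12 reads in replicate 2 and 11 in replicate 3. No other of these genes had a site in more than 1 GTPBP8 library.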

How the data were processed

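fPAR-CLIP site lists of 3 GTPBP8::FLAG libraries and 1 AUH::V5 library were used. For GTPBP8, the authors ran Bcl2fastq (2.17.1 in the submitters' processing notes), Cutadapt, PARpipe and PARalyzer on hg38, and deposited unnormalized counts of reads, distinct reads and conversions per site, with the share of converted reads and of reads ending in G as a fraction. For AUH, the calling program is not stated in the labels or the methods. Its deposited converted reads are handled here like expected counts, since a few are not whole. Dividing them by the converted fraction and rounding gave the AUH reads, an assumption, as the list does not define its columns. Positions were set to count from 1. The deposited AUH total, 3 to 6 times larger at these sites, was an alternative. Depth means all reads in listed sites (402701, 627603, 403172 and 9684). Reads outside sites are not analysed here.

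Sites overlapping by 1 nt on a strand were called shared. Values are means with the SD over libraries. Tests were the exact permutation test, a sign-flip test and edgeR (adjusted p threshold 0.05, total of site reads as library size). The edgeR fit was tested on simulated data. Alternatives were other denominators, minima of 10 reads or 2 conversion positions, overlap of 50%, converted or distinct reads, nuclear copies added, TMM, DESeq2, other gene filters and each GTPBP8 replicate left out. Distinct reads, which replaced the reads of GTPBP8 but not of AUH, and nuclear copies were added after seeing the data. The mRNAs, gene lists and sites to be named (places in all GTPBP8 replicates, the top AUH site of each mRNA; 2 of their sequences are not reported here) were chosen with earlier results of these data known. Tests ran in R 4.3.3 with DESeq2 1.42.0 and edgeR 4.0.16, the rest in Python 3.11.15 with scipy 1.17.1, pandas 2.3.3 and numpy 2.4.6, and plots in matplotlib 3.10.9.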

Additional observations from a re-analysis of the deposited data

Results flagged for a closer look

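Reads on the strand opposite the mRNAs entered no comparison above, and the GTPBP8 libraries held sites there. Opposite ATP8/ATP6, at nt 10 to 48, 55 and 50 of that mRNA (chrM:8375-8413, chrM:8375-8420 and chrM:8375-8415), replicates 1, 2 and 3 listed a minus-strand site with 75, 108 and 52 reads, or 186, 172 and 129 CPM, and AUH listed none. The start was the same in the 3 libraries, on an mRNA that had no GTPBP8 site in the sense direction. Other minus-strand sites were each in a single library: 26 reads opposite COX2 from nt 97 in replicate 1, 22 reads opposite COX1 from nt 1224 in replicate 2 and 47 reads opposite COX3 from nt 91 in replicate 3. AUH had minus-strand sites opposite COX2 (6 reads) and CYTB (8 reads), at other places. The MTATP6P1 site of GTPBP8 replicate 3, with 290 reads, had no site at its place in the other three libraries.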

How the results depend on the processing

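Of 103 recomputed values, 72 changed no call or, for values without a call, moved by no more than the spread between replicates. Some of the 72 equal the main value exactly. No conversion positions were available for AUH, so a minimum of them could remove no AUH site, and it removed no GTPBP8 site on these mRNAs. Splitting reads over mRNAs by overlap and requiring a larger overlap of sites also changed nothing. No stability is read from these settings. The ratio of GTPBP8 to AUH for the 5 mRNAs together (0.43) was 0.090 with mitochondrial site reads as denominator and 0.57 with those outside RNR2. It was 0.23 with the deposited AUH total and 0.84 with distinct reads in GTPBP8 alone. AUH kept all its reads in that last setting, which therefore does not set like against like. For COX1 (0.19) the same settings gave 0.040, 0.27, 0.10 and 0.40. Sites of at least 10 reads gave 0.13 and converted reads 0.17, all under 1. COX2 (0.93) had no settled direction: 0.19, 1.28, 0.50 and 1.74, with 0.68 for sites of at least 10 reads and 1.03 for converted reads, and leaving out a replicate gave 0.82 to 1.01. COX3 (1.71) reversed to 0.36 with mitochondrial site reads and 0.92 with the deposited AUH total. It rose to 3.32 with distinct reads in GTPBP8 alone. edgeR called 1 member, 2 with TMM factors and 0 with the 215 genes that have a site in at least 2 libraries. Its log2 difference turned to 0.12 for COX1 and 2.38 for COX2 with TMM, to between -0.29 and 0.0087 for COX2 with a GTPBP8 replicate left out, and to -0.12 for COX3 with the deposited AUH total. The converted share differed by -15.4 percentage points, and by -19.5 as the median over sites. Of GTPBP8 sites, 77.1% met an AUH site, and 37.5% of their nucleotides did. The fold against complex I (1.11) was 1.68 per nucleotide of site, and fell under 1 per kilobase of mRNA (0.84) and without GTPBP8 replicate 1 (0.87). The cause of these changes was not tested. With a GTPBP8 replicate left out, the COX3 ratio was 1.40 to 2.28. No paired analysis was possible because AUH has 1 library without a replicate number. AUH depth limits the rest: its sites here have 6 to 33 reads.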
